A study of Mus musculus with 24 samples.

Results

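The genes described here are 10 transcripts tied to the tumour suppressor p53 and to apoptosis: Trp53, Mdm2, Cdkn1a, Ccng1, Phlda3, Trp53inp1, Pmaip1, Bbc3, Bax and Eda2r. They were chosen by name, and their Ensembl identifiers picked out 10 of the 33019 rows of the deposited count table. All 10 passed the filter on low counts, as did 15851 genes in all. RNA was sequenced from liver of C57BL/6J mice aged 2 months, in 24 libraries, 4 for each of 6 genotypes. The libraries were labelled wild type (WT), hepatic Atg5 KO, hepatic TSC1 KO, the double knockout of Atg5 and TSC1 (DKO), and 2 triple knockouts that carry both of those deletions and lack either p62 (p62 TKO) or Nrf2 (Nrf2 TKO). Atg5 is needed to build autophagosomes, TSC1 restrains the growth kinase complex mTORC1, p62 (gene Sqstm1) is an autophagy receptor, and Nrf2 (gene Nfe2l2) is a transcription factor of the antioxidant response. Neither a Cre driver nor sex nor batch is named in the labels, nor whether libraries come from different animals. The p-values therefore measure the spread between libraries, which may be partly technical.

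p53, the product of Trp53, is a transcription factor that is kept low by Mdm2, a ubiquitin ligase whose own gene p53 activates. When p53 is stabilised by DNA damage or other stress it can induce genes that halt the cell cycle, genes of the BCL2 family that open the outer mitochondrial membrane, and genes that feed back on p53. In liver these genes are known from responses to injury, to regeneration and to loss of Mdm2. Regulation of p53 itself is largely at the level of protein stability, which RNA counts do not measure.

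By GENCODE M21 on GRCm38, each of the 10 is a single gene with its own identifier. A search for symbols that extend a gene's symbol by ps or rs found 1 for Trp53 and none for the others. Its effect on the Trp53 counts was not tested. Trp53 (ENSMUSG00000059552) lies at chr11:69580359-69591873 and Ccng1 (ENSMUSG00000020326) at chr11:40748552-40755311, and the pair Bbc3 (ENSMUSG00000002083, chr7:16308393-16318205) and Bax (ENSMUSG00000003873, chr7:45461697-45466898) share chromosome 7. Cdkn1a (ENSMUSG00000023067) is at chr17:29090976-29100727, Mdm2 (ENSMUSG00000020184) at chr10:117688875-117710758, Eda2r (ENSMUSG00000034457) at chrX:97333840-97377216, Phlda3 (ENSMUSG00000041801) at chr1:135766119-135769136, Trp53inp1 (ENSMUSG00000028211) at chr4:11156431-11174379 and Pmaip1 (ENSMUSG00000024521) at chr18:66458533-66465565.

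Totals ran from 10494080 to 13057467 counts per library. The scaling factors of the trimmed mean of M-values (TMM) ran from 0.717 to 0.813 in WT and from 1.49 to 1.56 in DKO, so the scaling weighs on every level given here. Levels are CPM, the share of a library's counts scaled up to a common total, here the TMM-scaled total. A gene was called when edgeR's quasi-likelihood test gave a Benjamini-Hochberg adjusted p under 0.05 across all 15851 genes, and each log2 fold change is given with its standard error. Counts over the whole gene did not show the 2 hepatic deletions: Atg5 was 26.8 CPM in WT and 43.0 in libraries labelled Atg5 KO, and Tsc1 was 35.1 CPM in WT and 31.0 in libraries labelled TSC1 KO. Atg5 was higher still in the libraries labelled TSC1 KO, at 83.7 CPM (1.64 ± 0.13 against WT, adjusted p = 1.5e-08). In DKO neither gene was called different from WT, with Atg5 at 23.4 CPM and Tsc1 at 36.6 CPM. A deletion of part of a gene can leave its remaining exons counted, so these values do not check the labels, and genotypes are given as labelled throughout. Sqstm1 fell from a mean of 961 CPM in DKO to 456 in p62 TKO (log2 -1.07 ± 0.25, adjusted p = 0.0015). Its libraries overlapped, from 249 to 774 CPM in p62 TKO and from 729 to 1060 in DKO. Against WT, at 578 CPM, Sqstm1 in p62 TKO was not called different (-0.34 ± 0.25, adjusted p = 0.27). Nfe2l2 fell from 113 CPM in DKO to 11.7 in Nrf2 TKO without overlap (log2 -3.26 ± 0.21, adjusted p = 8.3e-11).

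Summed levels of 10 markers per cell type differed between genotypes for some cell types and overlapped for others. The hepatocyte markers summed to between 86800 and 110000 CPM in WT. Atg5 KO, at 49200 to 120000, and TSC1 KO, at 86600 to 101000, overlapped WT. The hepatocyte sums were between 13900 and 19200 for DKO, 38400 and 50500 for p62 TKO, and 72900 and 99300 for Nrf2 TKO. The cholangiocyte markers summed to between 82.1 and 122 CPM in WT, 503 and 1190 in Atg5 KO, 601 and 1010 in TSC1 KO, 7250 and 10700 for DKO, 2550 and 3770 for p62 TKO, and 1690 and 2990 for Nrf2 TKO. Single genes made up much of these sums. Spp1 averaged 7400 CPM in DKO, of a mean cholangiocyte sum of 8660, and 68.6 of 109 in WT. Alb averaged 58800 CPM in WT, of a mean hepatocyte sum of 104000. All 10 hepatocyte markers were called lower and all 10 cholangiocyte markers higher in DKO than in WT. No marker of either list was at 0 counts in all 4 libraries of a genotype, though Cldn4 averaged only 0.0832 CPM in WT. Stellate cell markers summed to between 189 and 309 CPM in WT, 515 and 890 in Atg5 KO, 259 and 364 in TSC1 KO and 737 and 919 in DKO. In DKO against WT 7 of 10 rose, led by the collagen genes, and 2 fell, Reln (-1.27) and Lrat (-0.97). Macrophage markers summed to between 185 and 301 CPM in WT, 250 and 697 in Atg5 KO, 55.1 and 132 in TSC1 KO and 316 and 501 in DKO. Of these 10 genes 9 fell in TSC1 KO, and in DKO 5 rose while 4 fell, namely Timd4 (-3.88), Clec4f (-3.56), Marco (-2.47) and Vsig4 (-1.78). In libraries labelled Atg5 KO 8 of 10 stellate, 6 of 10 macrophage and 6 of 9 tested lymphocyte markers rose against WT. Lymphocyte markers summed to 3.65 to 7.71 CPM in WT and 12.9 to 25.9 in DKO, and endothelial markers to 107 to 210 and 168 to 213, with 5 endothelial markers higher and 2 lower, Clec4g (-2.26) and Stab2 (-1.0). These marker genes outside the naming rule were named after their values were seen. Against WT, 37.1% of all genes tested were called higher and 32.3% lower in DKO. The macrophage and endothelial counts in DKO were not far from those shares. In Atg5 KO the shares over all genes were 18.6% and 11.3%, and in TSC1 KO 8.79% and 7.60%. Of 8 neutrophil markers 4 passed the filter on low counts, and 1 was at 0 counts in all 4 WT libraries. In RNA of whole liver, a change in the number of cells of a type and a change in the RNA per cell cannot be told apart. The part of these markers in the results below was not tested.

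In DKO against WT 8 of the 10 genes rose and 2, Mdm2 and Bbc3, did not pass the test, where 37.1% of all genes tested were called higher. Pmaip1 was 39.0-fold higher, Phlda3 35.4-fold, Eda2r 28.8-fold, Cdkn1a 8.02-fold and Trp53inp1 4.10-fold, while Ccng1, Bax and Trp53 rose by between 1.97-fold and 2.80-fold. For each of those 8 genes the 4 DKO libraries were all above the 4 WT libraries. The single knockouts were compared with WT and not with each other: 6 genes passed in Atg5 KO and 3 in TSC1 KO, with Eda2r in both. Over all genes 18.6% and 8.79% were called higher there. Each triple knockout had 8 genes above WT, beside 28.0% of all genes in p62 TKO and 22.4% in Nrf2 TKO. The gene that set all of the genotypes with the double deletion apart from each other was Pmaip1.

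**Figure D1:**
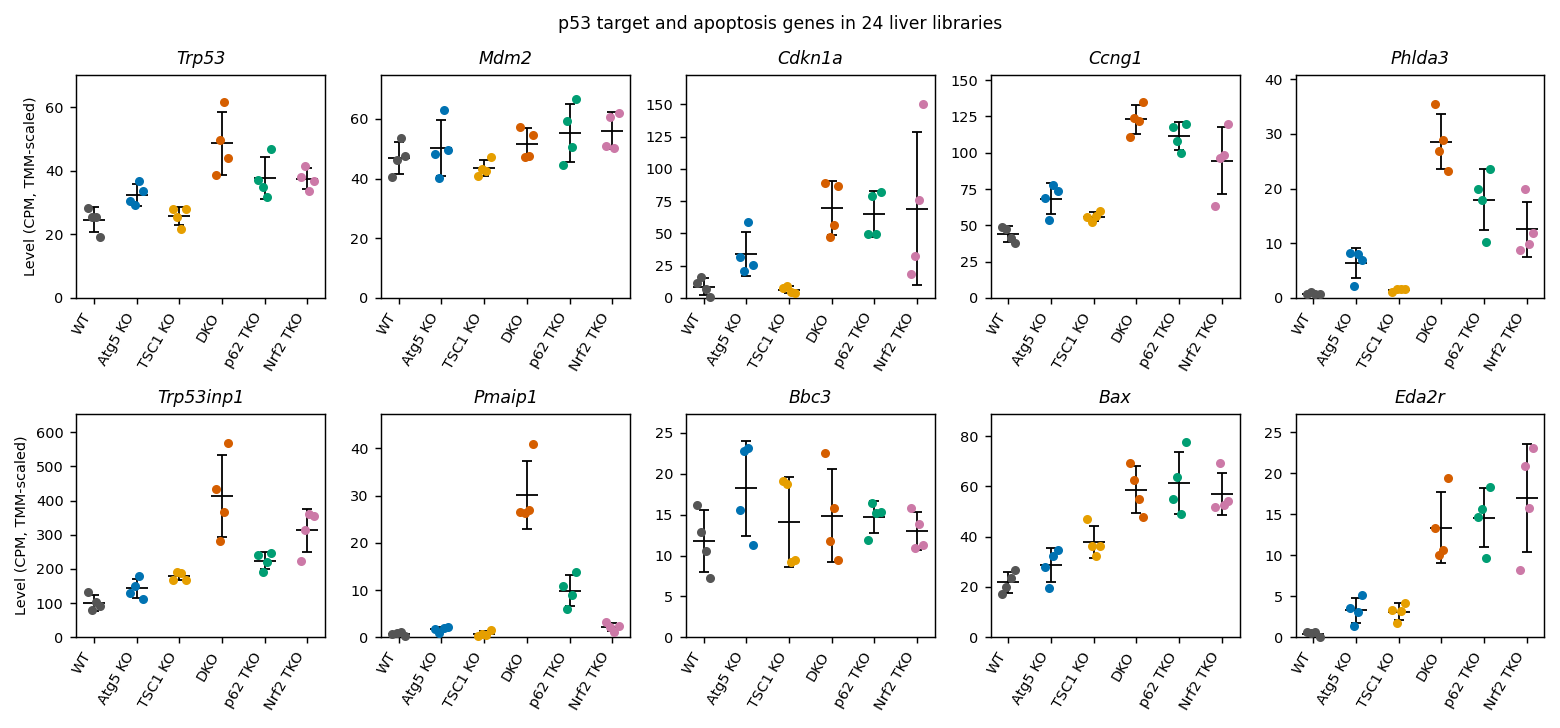
Level of each of the 10 genes (vertical axis, CPM on TMM-scaled totals, starting at 0, a separate scale per panel) in the 6 genotypes (horizontal axis), with 1 point per library and bars for the mean ± SD of 4 libraries. Pmaip1 sits between 26.4 and 41.0 CPM in DKO and at or below 13.8 in the 20 other libraries, while the Bbc3 points overlap between every pair of genotypes and the Mdm2 points of WT overlap those of the other genotypes.

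Among the regulators, Trp53 itself was measured at 28.4, 25.4, 25.5 and 19.2 CPM in WT and at 38.8, 49.7, 61.8 and 44.2 CPM in DKO. The lowest DKO library stood above the highest WT library, and the difference was 0.98 ± 0.15 on the log2 scale (adjusted p = 3e-06). Libraries labelled Atg5 KO gave 30.4, 29.2, 36.9 and 33.7 CPM, all just above WT, and those labelled TSC1 KO gave 27.9, 25.4, 21.8 and 27.9 CPM, inside the WT range. The means of the triple knockouts lay between those of the single knockouts and DKO, with libraries from 31.7 to 47.0 CPM in p62 TKO and from 33.7 to 41.6 CPM in Nrf2 TKO, and both overlapped DKO.

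Mdm2, the ligase that targets p53 for degradation and a classical p53 target, passed the test in none of the comparisons. Its libraries read 40.6, 46.1, 53.5 and 47.5 CPM in WT and 57.4, 47.2, 47.5 and 54.7 CPM in DKO, and the groups overlapped. The difference of 0.14 ± 0.13 had a 95% interval from -0.14 to 0.42 (adjusted p = 0.36). The means of the 6 genotypes ran from 43.4 CPM in TSC1 KO to 56.0 CPM in Nrf2 TKO, and every neighbouring pair in that order overlapped. The Nrf2 TKO libraries all lay above those of TSC1 KO, as did those of DKO by a margin smaller than the rounding of these levels (DKO against TSC1 KO 0.25 ± 0.13, adjusted p = 0.098). This rests on the scaling: with total counts alone, Mdm2 was called higher in DKO than in WT at 1.13 (adjusted p = 1.1e-06), against a median over all genes of 1.07.

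Of the genes tied to cell cycle arrest, Cdkn1a encodes p21, an inhibitor of cyclin-dependent kinases. It read 11.6, 16.1, 6.56 and 0.609 CPM in WT and 89.2, 47.3, 56.8 and 86.6 CPM in DKO (3.0 ± 0.64, adjusted p = 0.00032). The WT spread was wide, since the fourth library held 5 counts. Atg5 KO was intermediate at 31.5, 21, 58.5 and 25.5 CPM and did not overlap WT, whereas TSC1 KO gave 7.65, 9.39, 4.83 and 3.94 CPM, within the WT range. Nrf2 TKO spread from 18.9 to 150 CPM, the widest range of the 6 genotypes, with a mean of 69.4 ± 59.2 CPM (SD, n = 4).

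Ccng1 encodes cyclin G1, which forms part of the feedback on p53 and Mdm2. It gave 49.1, 47.8, 41.4 and 37.8 CPM in WT and 111, 124, 122 and 135 CPM in DKO, with tight replicates in both (1.48 ± 0.15, adjusted p = 7e-09). The Atg5 KO libraries, at 68.8, 53.4, 78.0 and 73.6 CPM, and the TSC1 KO libraries, at 55.4, 52.4, 56.7 and 59.6 CPM, all lay above WT and below DKO. Nrf2 TKO libraries were 63.4, 96.5, 98.5 and 120 CPM, and the first of them fell within the Atg5 KO range.

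The promoters of Cdkn1a and Ccng1 are shown because each holds a contiguous pair of p53 half-sites, the form of sequence that p53 binds as a tetramer, with at most 1 mismatch to the consensus. The search compared RefSeq windows of GRCm38.p6, 250 bases before to 50 after each start site, with the p53 half-site consensus, which is its own reverse complement and so covers both strands. Windows were found for 8 of the 10 genes, 11 windows in all, and none for Pmaip1 and Trp53inp1. The 250 bases before the start site are printed 5′ to 3′, with the pair in capitals. For Cdkn1a they span chr17:29090729-29090978 on the plus strand, upstream of the first of 2 start sites, and for Ccng1 chr11:40755287-40755536 on the minus strand.
Cdkn1a: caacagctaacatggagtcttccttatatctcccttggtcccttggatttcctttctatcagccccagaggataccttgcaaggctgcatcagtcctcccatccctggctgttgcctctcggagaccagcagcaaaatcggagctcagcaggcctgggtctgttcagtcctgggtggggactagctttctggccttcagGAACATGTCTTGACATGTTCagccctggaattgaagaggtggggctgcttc
Ccng1: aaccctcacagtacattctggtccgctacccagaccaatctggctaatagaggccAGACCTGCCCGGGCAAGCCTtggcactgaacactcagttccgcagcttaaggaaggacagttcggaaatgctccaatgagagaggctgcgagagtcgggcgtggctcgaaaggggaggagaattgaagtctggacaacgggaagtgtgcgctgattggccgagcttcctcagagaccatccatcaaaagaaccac

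The Cdkn1a pair, at chr17:29090928-29090947, began 51 bases before the first of the 2 Cdkn1a start sites. The Ccng1 pair, at chr11:40755462-40755481, began 195 bases before the Ccng1 start site. Of 32851 windows of the same length in RefSeq, 22 (0.067%) held a contiguous pair with at most 1 mismatch. At least 1 half-site without mismatch was found in 2745 (8.36%). The window at the second Cdkn1a start site, chr17:29093519-29093818, held neither such a pair nor a half-site without mismatch. The other 6 genes with windows held no such pair. When half-sites up to 13 bases apart and 2 mismatches were allowed, the Bax window also held one, which 4.09% of all windows did. Of the 22 genes with a contiguous pair, 6 passed the filter on low counts. In DKO against WT, Cdkn1a, Ccng1 and Gtse1 (2.71 ± 0.50, adjusted p = 4.4e-05) rose, Mthfd1 (-1.90 ± 0.18, adjusted p = 2.7e-09) and Rps27l (-0.78) fell, and Calhm2 (0.62 ± 0.33, adjusted p = 0.10) did not pass the test. These 3 higher and 2 lower of 6 stood beside 37.1% higher and 32.3% lower over all genes. A match to the letters describes the sequence only and says nothing of binding in these livers.

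Phlda3 encodes a small PH-domain protein that restrains AKT and is induced by p53. It was near the limit of counting in WT, at 0.681, 1.04, 0.741 and 0.731 CPM, or 6 to 9 counts per library, and at 35.4, 26.8, 28.9 and 23.3 CPM in DKO (5.15 ± 0.40, adjusted p = 1.3e-10). Atg5 KO gave 8.23, 2.25, 7.96 and 6.97 CPM and TSC1 KO gave 1.09, 1.71, 1.55 and 1.67 CPM. Its levels fell into steps, with WT, TSC1 KO, Atg5 KO and Nrf2 TKO each below the next without overlap of the libraries, and p62 TKO overlapping both Nrf2 TKO and DKO at the top.

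Trp53inp1, whose product binds p53 and takes part in autophagy and cell death, had a level per length of transcript of 15.6 RPKM in WT and 63.8 in DKO, the highest of the 10 genes in both. In p62 TKO it was below Bax, at 34.6 against 38.9 RPKM. In CPM it read 132, 78.9, 102 and 90.2 in WT, 169, 190, 189 and 167 in TSC1 KO, and 435, 283, 366 and 570 in DKO (DKO against WT 2.04 ± 0.20, adjusted p = 6.6e-09). The TSC1 KO libraries lay above all WT libraries and below all DKO libraries. Those labelled Atg5 KO, at 130, 151, 179 and 113 CPM, overlapped WT.

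Pmaip1, Bbc3 and Bax belong to the BCL2 family: Pmaip1 (NOXA) and Bbc3 (PUMA) are BH3-only proteins that neutralise survival members, and Bax forms pores in the mitochondrial outer membrane. Pmaip1 read 0.681, 0.924, 1.06 and 0.365 CPM in WT, or 3 to 10 counts per library, and 26.5, 26.4, 26.9 and 41.0 CPM in DKO. It rose by 5.28 ± 0.39 (adjusted p = 5.7e-11). Both single knockouts stayed low, at 1.83, 0.988, 1.99 and 2.19 CPM in Atg5 KO and 0.328, 0.664, 0.483 and 1.48 CPM in TSC1 KO, and both overlapped WT. Of the 10 genes, Pmaip1 had the largest log2 difference between DKO and either single knockout.

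Bbc3 behaved otherwise, with 16.2, 12.9, 10.6 and 7.19 CPM in WT and 22.5, 11.8, 15.8 and 9.48 CPM in DKO. The difference of 0.34 ± 0.29 had a 95% interval from -0.27 to 0.95 (adjusted p = 0.31), and no pair of genotypes separated its libraries. As with Mdm2, this rests on the scaling, and with total counts alone Bbc3 was called higher at 1.33 (adjusted p = 0.00017). Bax rose in steps, from 17.1, 20, 23.5 and 26.7 CPM in WT through 46.9, 36.3, 32.2 and 36.4 CPM in TSC1 KO to 69.5, 62.5, 55 and 47.8 CPM in DKO (DKO against WT 1.43 ± 0.18, adjusted p = 3.1e-07). TSC1 KO lay above WT and below DKO without overlap, and Atg5 KO, at 27.9, 19.8, 32.3 and 34.9 CPM, overlapped WT and TSC1 KO.

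Eda2r is the receptor for the A2 form of ectodysplasin, a member of the TNF receptor family and a p53 target. It held 0 to 6 counts per library in WT, 0.681, 0.462, 0.635 and 0 CPM, and 13.3, 10, 10.6 and 19.5 CPM in DKO (4.85 ± 0.51, adjusted p = 1.7e-08). Both single knockouts were intermediate and close to each other, with 3.58, 1.35, 3.11 and 5.11 CPM in Atg5 KO and 3.28, 1.71, 3.19 and 4.24 CPM in TSC1 KO. Neither overlapped WT or DKO. The 3 genotypes with the double deletion overlapped one another, from 8.22 to 23.1 CPM.

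In libraries labelled Atg5 KO, 6 of the 10 genes rose against WT and none fell, where 18.6% of all genes tested were called higher and 11.3% lower. Phlda3 (2.98 ± 0.41, adjusted p = 1.1e-05), Eda2r (2.84 ± 0.54, adjusted p = 0.00046) and Ccng1 (0.64 ± 0.15, adjusted p = 0.0022) held when each library in turn was left out. Cdkn1a (1.97 ± 0.63, adjusted p = 0.023), Pmaip1 (1.19 ± 0.43, adjusted p = 0.039) and Trp53 (0.40 ± 0.15, adjusted p = 0.042) did not. Bbc3 (0.63 ± 0.30), Trp53inp1 (0.51 ± 0.20), Bax (0.40 ± 0.18) and Mdm2 (0.10 ± 0.13) missed the threshold. The median over the 10 genes was 0.63, beside 0.00 over all genes. Without Atg5 KO replicate 3, the calls of Cdkn1a (1.58, adjusted p = 0.084), Pmaip1 (1.12, adjusted p = 0.081) and Trp53 (0.34, adjusted p = 0.13) were lost, leaving 3 genes. With total counts alone 36.1% of all genes were higher and 2.20% lower, and all 10 genes were called higher.

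In libraries labelled TSC1 KO the genes that passed against WT were Eda2r (2.74 ± 0.55, adjusted p = 0.0018), Trp53inp1 (0.83 ± 0.20, adjusted p = 0.0061) and Bax (0.80 ± 0.18, adjusted p = 0.0045). These were 3 of 10 called higher and none lower, beside 8.79% and 7.60% of all genes, and 3 of 10 again whichever library was left out. Phlda3 was at 0.92 ± 0.47 (adjusted p = 0.19) and Ccng1 at 0.35 ± 0.15 (adjusted p = 0.11), although the TSC1 KO libraries lay above WT for both. Cdkn1a, at -0.43 ± 0.67, had an interval from -1.83 to 0.96, so that neither a rise nor a fall of this size could be detected. The median was 0.31, beside 0.01 over all genes. Atg5 KO and TSC1 KO were not tested against each other. Their 95% intervals against WT overlapped for Trp53inp1, at 0.10 to 0.91 and 0.42 to 1.23. For Bax they also overlapped, at 0.02 to 0.77 and 0.42 to 1.17.

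The 8 genes called higher in DKO against WT stood beside 37.1% of all genes called higher and 32.3% called lower, and none of the 10 was lower. Their median was 1.76, beside 0.08 over all genes. Under DESeq2 the count was 8, and it was 8 without any 1 library. With total counts alone 70.4% of all genes were higher and 11.1% lower, and all 10 genes were called higher around a median over all genes of 1.07. Against libraries labelled Atg5 KO, DKO was higher for 7 genes, beside 29.2% higher and 27.3% lower of all genes (57.8% and 12.3% with total counts alone). Pmaip1 led at 4.09 ± 0.34 (adjusted p = 1.3e-09), and Cdkn1a missed the threshold at 1.03 ± 0.57 (adjusted p = 0.13). Against libraries labelled TSC1 KO, DKO was higher for 8 genes, beside 36.6% higher and 30.0% lower (68.0% and 11.9% with total counts alone), with Pmaip1 at 5.32, Phlda3 at 4.23 and Cdkn1a at 3.44.

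**Figure D2:**
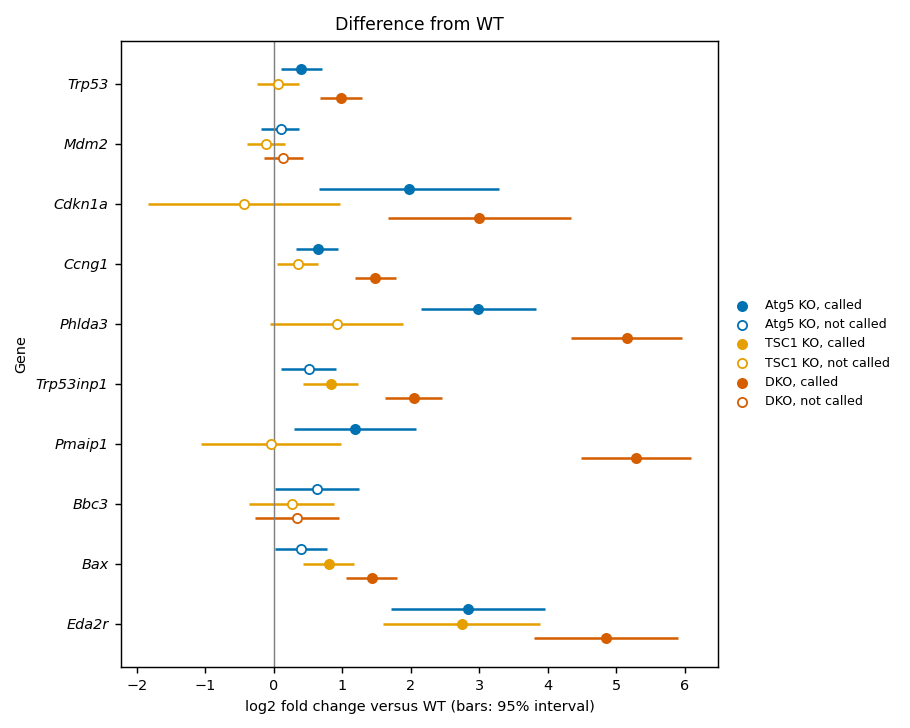
log2 fold change against WT (horizontal axis) of the 10 genes (vertical axis) in Atg5 KO, TSC1 KO and DKO, with bars for the 95% interval and filled points for genes called. DKO is filled for 8 genes and farthest from 0 for Pmaip1 at 5.28, while the Mdm2 and Bbc3 points are open in all 3 genotypes.

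Whether DKO exceeded the sum of the 2 single knockouts was tested as an interaction on the log2 scale. Only Pmaip1 passed, at 4.13 ± 0.61 (adjusted p = 1.7e-05), which is 1 of 10 genes higher beside 15.5% of all genes higher and 19.3% lower. Trp53inp1 (0.70, adjusted p = 0.052), Trp53 (0.51, adjusted p = 0.056), Ccng1 (0.50, adjusted p = 0.063) and Phlda3 (1.25, adjusted p = 0.098) missed the threshold. For Eda2r the value was -0.73 (adjusted p = 0.44), so its 2 single effects of 2.84 and 2.74 were not shown to differ from additivity. The Pmaip1 value rests on 3 to 15 counts per library in WT and TSC1 KO, though it was called in all 22 alternatives tried. Between 1 and 4 genes were called as single libraries were left out, the 4 without Atg5 KO replicate 3, and 6 with total counts alone, where 35.5% of all genes were higher and 10.6% lower.

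The triple knockouts ask which of these levels shifted when p62 or Nrf2 was also missing. Pmaip1 fell in both. Its libraries read 10.8, 5.99, 8.97 and 13.8 CPM in p62 TKO and 3.17, 2.23, 1.07 and 2.41 CPM in Nrf2 TKO, so DKO, p62 TKO and Nrf2 TKO formed 3 groups with no overlap. It fell by 1.61 ± 0.29 in p62 TKO (adjusted p = 0.00012) and by 3.76 ± 0.33 in Nrf2 TKO (adjusted p = 4.6e-09). The 2 triple knockouts differed by 2.15 ± 0.33 (adjusted p = 0.00012), the only 1 of the 10 genes called in that comparison, beside 10.4% of all genes higher in p62 TKO and 7.11% lower (18.8% and 3.46% with total counts alone). In Nrf2 TKO, Pmaip1 remained above WT by 1.52 ± 0.42 (adjusted p = 0.0066).

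In p62 TKO 3 genes fell against DKO and none rose, beside 21.5% of all genes lower and 22.3% higher. Trp53inp1 read 241, 191, 219 and 247 CPM, below every DKO library (-0.88 ± 0.20, adjusted p = 0.00085). Trp53 fell by 0.37 ± 0.14 (adjusted p = 0.040) with overlapping libraries, and its call was lost in 5 of 8 leave-outs, with the smallest change without DKO replicate 3 (-0.23, adjusted p = 0.19), and when only the groups compared were fitted (adjusted p = 0.11). Phlda3, at 20, 18, 10.3 and 23.5 CPM, missed the threshold (-0.67 ± 0.29, adjusted p = 0.061). It was called lower when only the groups compared were fitted (-0.66, adjusted p = 0.039) and without p62 TKO replicate 4 (-0.83, adjusted p = 0.039). Cdkn1a at -0.10 ± 0.56, Bax at 0.06 and Eda2r at 0.12 stayed close to DKO, with a wide interval for Cdkn1a in the plot of differences from DKO. With total counts alone 47.6% of all genes were lower and 10.2% higher, and 5 of the 10 genes were called lower.

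In Nrf2 TKO 4 genes fell against DKO and none rose, beside 29.2% of all genes lower and 26.7% higher. Phlda3 read 8.71, 19.9, 9.78 and 11.9 CPM, below all DKO libraries (-1.18 ± 0.29, adjusted p = 0.0015). Trp53 (-0.37 ± 0.14, adjusted p = 0.031) and Ccng1 (-0.38 ± 0.14, adjusted p = 0.028) fell with overlapping libraries. The Ccng1 call was lost in 4 of 8 leave-outs, with the smallest change without Nrf2 TKO replicate 1 (-0.16, adjusted p = 0.29), and that of Trp53 in 5 of 8, with the smallest change without DKO replicate 3 (-0.23, adjusted p = 0.17). Both were also lost when only the groups compared were fitted (adjusted p = 0.19 and 0.13), which left 2 of the 10 genes, Pmaip1 and Phlda3. Trp53inp1, at 223, 313, 362 and 354 CPM, missed the threshold (-0.40 ± 0.19, adjusted p = 0.083), and Cdkn1a, Bax and Eda2r were at -0.01, -0.04 and 0.35. With total counts alone 59.8% of all genes were lower and 11.5% higher, and 8 of the 10 genes were called lower.

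**Figure D3:**
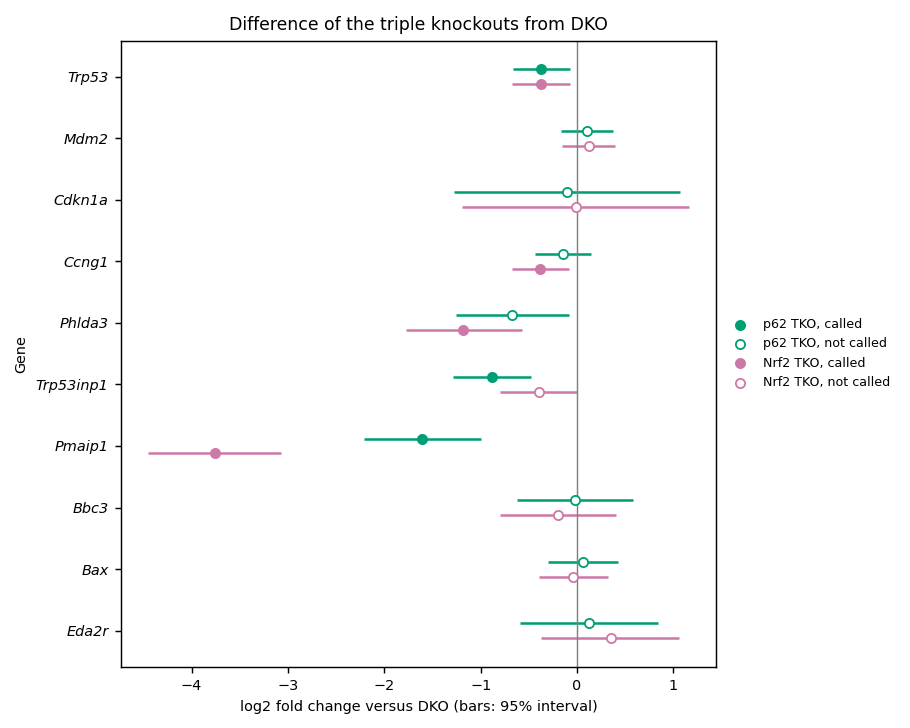
log2 fold change against DKO (horizontal axis) of the 10 genes (vertical axis) in p62 TKO and Nrf2 TKO, with bars for the 95% interval and filled points for genes called. Pmaip1 stands farthest from 0 in both, at -1.61 and -3.76, and the other points, except Phlda3 in Nrf2 TKO at -1.18, lie within 1 log2 unit of DKO.

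Against WT, each triple knockout was higher for 8 of the 10 genes. The exceptions in p62 TKO were Mdm2 (0.24 ± 0.13) and Bbc3 (0.32), and in Nrf2 TKO again Mdm2 (0.26) and Bbc3 (0.14). For p62 TKO this stood beside 28.0% of all genes higher and 22.9% lower (54.1% and 6.23% with total counts alone), and for Nrf2 TKO beside 22.4% and 17.1% (38.9% and 6.33%). Eda2r was at 4.97 and 5.20, Phlda3 at 4.48 and 3.97, Cdkn1a at 2.90 and 2.99, and Bax at 1.49 and 1.39 in p62 TKO and Nrf2 TKO. The hepatocyte marker sums given above for Nrf2 TKO overlapped those of WT, and its cholangiocyte sums, at 1690 CPM or more, were all above the 122 CPM that was the highest in WT. All of these comparisons share the WT libraries, and the comparisons with DKO share the DKO libraries.

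Of 39 further p53 targets, 22 rose, 12 fell and 5 did not pass in DKO against WT, with a median of 1.05 beside 0.08 over all genes. Over all genes 37.1% were higher and 32.3% lower, so the share that fell was near that of all genes. In libraries labelled Atg5 KO 14 of the 39 rose and 1 fell, beside 18.6% and 11.3%. Plk2, a kinase of the cell cycle and of synapses, went from a mean of 9.63 CPM in WT to 81.4 in DKO (3.08 ± 0.22, adjusted p = 3.2e-11). Apaf1, the scaffold of the apoptosome, rose from 2.75 to 26.8 CPM (3.28 ± 0.27). Tnfrsf10b, a receptor for the death ligand TRAIL, rose from 0.427 to 11.7 CPM (4.74 ± 0.42), and Sesn2, a stress-induced inhibitor of mTORC1, from 8.0 to 37.0 CPM (2.21 ± 0.20). Fas, the death receptor for Fas ligand, fell from 30.1 to 8.12 CPM (-1.89 ± 0.15, adjusted p = 1.2e-10) and rose again to 23.9 CPM in p62 TKO and 25.5 CPM in Nrf2 TKO. Ei24, a gene of the endoplasmic reticulum, fell by 0.56 ± 0.17, and Ephx1, an epoxide hydrolase, was at 0.07 ± 0.21 in DKO but rose by 0.93 ± 0.21 in Atg5 KO.

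Of 21 tested regulators of p53, 10 rose and 2 fell in DKO against WT (median 0.26), and 11 fell and 1 rose in p62 TKO against DKO (median -0.37, beside -0.02 over all genes). In Nrf2 TKO against DKO 8 fell and 3 rose. The shares over all genes were 37.1% higher and 32.3% lower in DKO, 22.3% and 21.5% in p62 TKO, and 26.7% and 29.2% in Nrf2 TKO. Cdkn2a, whose locus encodes the Mdm2 inhibitor ARF and the kinase inhibitor p16, went from 0.0877 CPM in WT to 2.37 in DKO, and to 0.591 and 0.203 in p62 TKO and Nrf2 TKO. It rose by 4.63 ± 0.66 in DKO (adjusted p = 1.6e-06), and counts per gene do not separate its 2 products. Setd7, a lysine methyltransferase with p53 among its substrates, rose by 2.57 ± 0.20 in DKO, and Trp53bp1, a protein of double-strand break repair, by 1.24 ± 0.15. Ppm1d, a phosphatase that turns down p53 signalling, rose by 0.81 ± 0.16, and Cop1, a ubiquitin ligase of p53, fell by 0.77 ± 0.14. Rpl5 (0.25 ± 0.13, adjusted p = 0.076) and Rpl11 (-0.06 ± 0.13, adjusted p = 0.69), ribosomal proteins that can bind Mdm2, did not pass the test.

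Some genes stand in more than 1 of the lists that follow, such as Fas, Tnfrsf10b, Apaf1 and Cdkn2a. Among genes of mitochondrial apoptosis, 8 of 11 other pro-death members of the BCL2 family and their relatives rose in DKO against WT and 1 fell (median 0.89), beside 37.1% of all genes higher and 32.3% lower. Bcl2l11 (BIM), a BH3-only protein, rose from a mean of 5.04 CPM in WT to 25.8 in DKO (2.35 ± 0.26), and p62 TKO and Nrf2 TKO had means of 8.68 and 7.18 CPM. It fell by 1.57 ± 0.25 and by 1.84 ± 0.25 in the 2 triple knockouts, so it moved in the same direction as Pmaip1 there. Bok (1.84 ± 0.24), Bik (1.5 ± 0.27), Bid (0.89 ± 0.14) and Bnip3l (0.29 ± 0.09) rose in DKO, and Bnip3, a mitophagy receptor, fell by 0.90 ± 0.18. The genes of survival moved as well, 8 of 12 higher and 3 lower (median 1.05) beside the same shares over all genes. Bcl2, the founding survival gene, rose by 2.95 ± 0.27, Bcl2a1b by 2.97 ± 0.54, Birc2 by 0.96 ± 0.14 and Mcl1 by 0.33 ± 0.12, whereas the caspase inhibitors Xiap (-1.51 ± 0.13) and Cflar (-1.46 ± 0.15) fell.

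For death receptors and their adaptors, 8 of 15 rose and 3 fell in DKO against WT (median 1.05), beside 37.1% and 32.3% of all genes. In libraries labelled Atg5 KO 6 of the 15 rose and none fell, beside 18.6% and 11.3%. Eda, which encodes the ligand of Eda2r among its splice forms, rose from 1.37 CPM in WT to 6.09 in Atg5 KO and 5.33 in DKO, and was at 2.03 CPM in TSC1 KO (0.57 ± 0.37, adjusted p = 0.31). Tnfrsf12a, the receptor of TWEAK, rose by 2.97 ± 0.32 and Tnfrsf21 by 1.35 ± 0.21 in DKO. Tnfrsf1a (-0.85 ± 0.27) and Ripk1 (-0.47 ± 0.19), a TNF receptor and the kinase downstream of it, fell. Of 19 caspases and apoptosome genes 7 were higher and 7 lower in DKO (median 0.01), shares near those of 37.1% and 32.3% over all genes. Casp12, a caspase of the endoplasmic reticulum in mouse, rose from 2.56 CPM in WT to 71.3 in Atg5 KO and 82.3 in DKO, while Cycs (cytochrome c) fell by 1.58 ± 0.15, Aifm1 by 1.51 ± 0.12 and Gsdmd, the pore-forming protein of pyroptosis, by 2.38 ± 0.17.

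Inhibitors of cyclin-dependent kinases and genes used as marks of senescence rose in DKO against WT for 9 of 10 tested (median 1.92), beside 37.1% of all genes. In each triple knockout 6 of 10 fell against DKO (medians -0.74 in p62 TKO and -1.35 in Nrf2 TKO), beside 21.5% and 29.2% of all genes. Cdkn2b (p15) rose by 5.17 ± 0.50 and Cdkn1c (p57) by 2.75 ± 0.44. Cdkn1b (p27) and Glb1, the lysosomal galactosidase behind the senescence stain, rose by 0.68 ± 0.14 and 1.01 ± 0.13. Igfbp3, which binds insulin-like growth factors, went from 10.7 CPM in WT to 218 in DKO and stood at 28.9 and 22.2 CPM in p62 TKO and Nrf2 TKO. Genes of the cell cycle were higher at the same time: 23 of 30 rose in DKO and 24 of 30 in libraries labelled Atg5 KO, with none lower (medians 2.51 and 2.01), beside 37.1% and 18.6% of all genes higher. Top2a (4.26 ± 0.48), Foxm1 (3.56 ± 0.40), Ccnd2 (2.95 ± 0.27), Ccnd1 (2.76 ± 0.31), Cdk4 (1.44 ± 0.12) and Pcna (0.66 ± 0.15) rose in DKO. In Nrf2 TKO against DKO 15 of 30 fell and none rose, beside 29.2% and 26.7% of all genes, and in p62 TKO 2 rose and 2 fell, beside 22.3% and 21.5%.

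**Figure D4:**
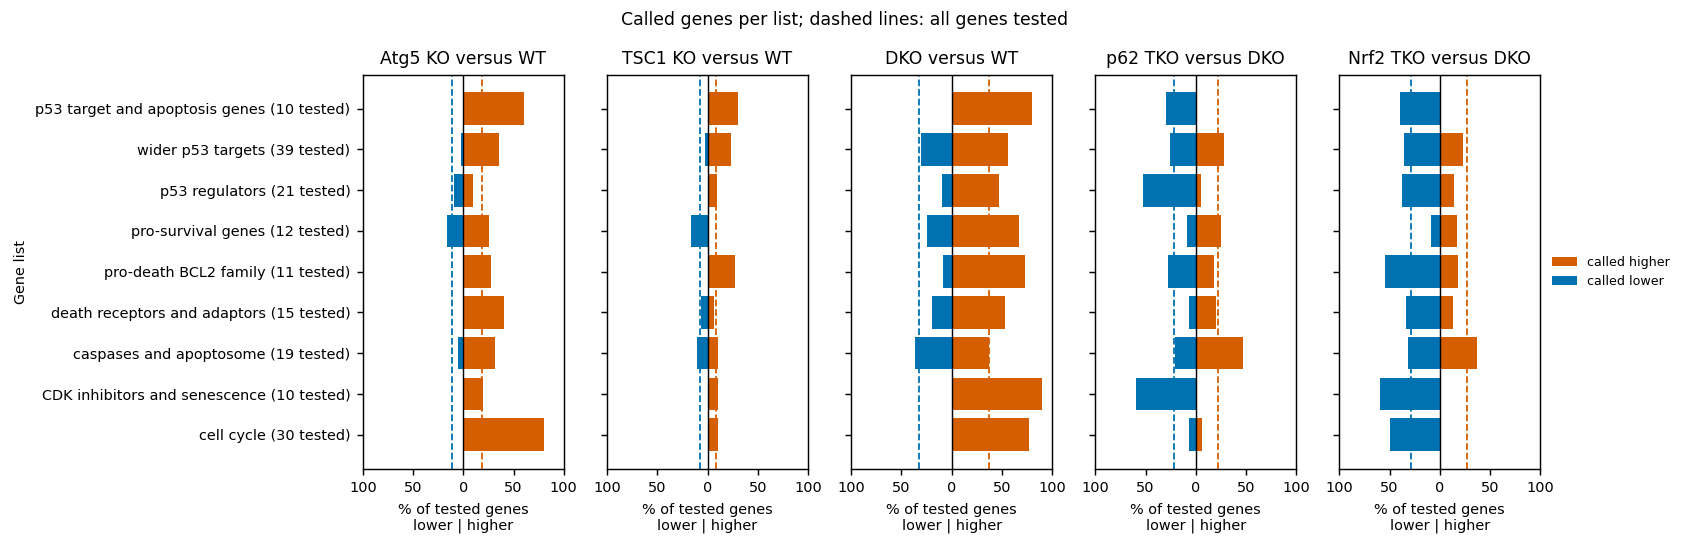
Share of the tested genes of each list (vertical axis, number tested in brackets) called higher (right of 0) or lower (left of 0), in percent, in 5 comparisons, with dashed lines at the shares over all genes tested. In DKO against WT the bars for the 10 genes, for CDK inhibitors and senescence and for the cell cycle extend to the right only, whereas the wider p53 targets have 22 of 39 genes higher and 12 lower.

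Likeness of pattern was measured for each of the 10 genes as the root mean square difference between standardised log2 levels over the 24 libraries, among 11354 genes, where all genes gave medians between 1.38 and 1.42 SD. The nearest to Phlda3 were Tnfrsf10b (0.23 SD), Psrc1 (0.23) and Dcbld1 (0.24), and the nearest to Pmaip1 were Rab11fip5 (0.25), Flt4 (0.28) and Vopp1 (0.28). Ccng1 lay close to Tmem43 (0.31), Zmat3 (0.32) and Hkdc1 (0.33), Eda2r to Klf6 (0.36), Emp2 (0.38) and Polk (0.39), and Bax to Rab11a (0.32). For Trp53 the nearest was Dab2 (0.42), for Cdkn1a Nrg1 (0.44) and for Trp53inp1 Catsperd (0.39). Mdm2 and Bbc3 had no gene as near: Atf3 stood at 0.69 from Mdm2 and Dut at 0.76 from Bbc3. Among the 10 genes themselves the nearest pair was Ccng1 and Phlda3 (0.32), followed by Ccng1 and Eda2r (0.41). The libraries share their scaling and genotype steps, so these distances describe patterns only.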

How the data were processed

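Liver RNA was measured in 24 libraries, grouped by the genotype in the labels. The authors deposited raw counts for each Ensembl identifier. The submitters' processing notes name the build GRCm38, HTSeq, HISAT2 2.1.0 and Trimmomatic 0.36. Not given in the sources used here were the HTSeq version, the annotation and the strand setting. Cdkn1a and Bax overlap other annotated genes by 273 and 192 exonic bases, so their counts carry that uncertainty. Symbols came from GENCODE M21, which matched 32953 of 33019 identifiers.

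Counts were filtered with filterByExpr, scaled by TMM and fitted with edgeR 4.0.16 (robust quasi-likelihood, R 4.3.3), 1 mean per genotype and 18 residual degrees of freedom. All 11 comparisons, 1 of them the interaction, came from that fit. The fit was first run on simulated counts with a small, balanced set of genes changed in 1 group, read for DKO against WT only. That run held no shift in scaling like that of the real libraries. It therefore does not check the scaling, the other comparisons or the interaction. Figures used matplotlib 3.10.9. Standard errors were derived from F (log2 fold change over its square root), and intervals are at 95%. RPKM used the union of exons. Alternatives were DESeq2 1.42.0, its size factors, total counts, no filter, a replicate block, only the groups compared, and each library left out. The members, the gene lists and the tests were chosen with earlier results of these data known. All 10 genes were named. From each list up to 5 genes with the smallest adjusted p in DKO against WT and up to 2 of the most abundant by mean CPM were named, and for likeness the 3 nearest genes of at least 5 CPM could be named, predicted genes left out.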

Additional observations from a re-analysis of the deposited data

Results flagged for a closer look

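Of 60 sets of 4 libraries (10 genes in 6 genotypes), 3 had 1 library far from the other 3 by Dixon's criterion, and chance alone gives about 1 in 20. Pmaip1 in DKO replicate 4, at 41.0 CPM, stood above 3 libraries between 26.4 and 26.9 CPM. Bax in Nrf2 TKO replicate 2, at 69.5 CPM, stood above 3 libraries between 51.7 and 54.4 CPM. Phlda3 in WT replicate 2, at 1.04 CPM, was 9 counts where the others had 6 or 7.

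Pmaip1 was set apart by tests of differences between groups. The effect of losing both Atg5 and TSC1 exceeded the sum of the single effects by 4.13 ± 0.61 on the log2 scale (edgeR, adjusted p = 1.7e-05), and its level was 2.15 ± 0.33 higher in p62 TKO than in Nrf2 TKO (adjusted p = 0.00012). In the latter all 4 p62 TKO libraries lay above all 4 Nrf2 TKO libraries.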

How the results depend on the processing

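Counts of the 10 genes called stayed at 8 in DKO, p62 TKO and Nrf2 TKO against WT, 8 in DKO against TSC1 KO, 7 in DKO against Atg5 KO and 3 in TSC1 KO against WT when any 1 library was left out. With 1 library out they ran from 3 to 7 in Atg5 KO against WT, from 1 to 4 in the interaction, from 2 to 4 in p62 TKO and in Nrf2 TKO against DKO (in the latter 2 without Nrf2 TKO replicate 1 or 3) and from 1 to 2 in p62 TKO against Nrf2 TKO, and all genes called in TSC1 KO against WT from 1724 to 2272. Total counts alone called 10 in Atg5 KO against WT, 6 in the interaction, 5 in p62 TKO and 8 in Nrf2 TKO against DKO. No filter left 3 in Atg5 KO against WT. Fitting only the groups compared left 2 in the interaction and 2 in Nrf2 TKO against DKO, with 1677 genes called between the triple knockouts and 3691 in Nrf2 TKO against WT; Pmaip1 in TSC1 KO against WT then fell to the filter and has no value.

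Signs turned for log2 values that were not called under the settings of the report. With total counts alone these were Mdm2 (0.02) and Pmaip1 (0.09) in TSC1 KO against WT, Bbc3 (0.36) in DKO against Atg5 KO, Mdm2 (-0.37), Bax (-0.39) and Eda2r (-0.34) in p62 TKO and Mdm2 (-0.54, adjusted p = 0.0043) and Eda2r (-0.31) in Nrf2 TKO against DKO, and Cdkn1a (0.17) and Mdm2 (0.18) between the triple knockouts. The shift of all genes under that scaling is given in the report. No filter turned Bax in p62 TKO against DKO (0.00) and Mdm2 between the triple knockouts (0.01). Only the groups compared turned Cdkn1a (0.07) and Bax (0.03) in Nrf2 TKO against DKO and Trp53 between the triple knockouts (0.00). With 1 library out, ranges were -0.03 to 0.18 for Mdm2 in Atg5 KO, -0.76 to 0.03 for Cdkn1a and -0.61 to 0.18 for Pmaip1 in TSC1 KO against WT, -0.11 to 0.17 for Mdm2 in DKO against Atg5 KO and -0.20 to 0.23 for Bbc3 in DKO against TSC1 KO. They were -0.25 to 0.03 (Cdkn1a), 0.00 to 0.19 (Mdm2), -0.19 to 0.24 (Bbc3), -0.07 to 0.16 (Bax) and 0.00 to 0.36 (Eda2r) in p62 TKO against DKO, and -0.66 to 0.38 (Cdkn1a), -0.36 to 0.07 (Bbc3) and -0.15 to 0.07 (Bax) in Nrf2 TKO against DKO. Between the triple knockouts they were -0.12 to 0.08 (Trp53), -0.44 to 0.59 (Cdkn1a), -0.12 to 0.07 (Mdm2) and -0.03 to 0.21 (Bax). The cause was not tested.

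Replicate numbers did not pair the libraries: deviations of same-numbered libraries correlated at means of -0.0369 to 0.0387, and 6 of 24 libraries correlated best with their own number. With the number as a replicate block, Trp53 lost its call in Atg5 KO against WT (adjusted p = 0.061) and p62 TKO against DKO (adjusted p = 0.059), and Bbc3 turned to 0.05 in the latter. DESeq2 gave the same verdict in 109 of 110 tests of the 10 genes and added Trp53inp1 in Atg5 KO against WT (0.50, adjusted p = 0.047). Low counts limit Eda2r, Phlda3 and Pmaip1 in WT, with at most 10 per library.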
